A study of Mus musculus with 22 samples.

Results

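The nerve of the embryonic limb was followed through 8 genes in forelimbs with and without Chsy-1. Sox10, Erbb3 and Foxd3 mark the Schwann cell lineage, and Nefm, Nefl, Stmn2, Tubb3 and Prph mark axons and neurons. Their probes were found by the gene symbol, an older symbol or the transcript accession in the array files. All 8 were on the array, with 15 probes among 41174, and all 8 passed the filter on dim probes that left 18629 genes and unnamed probes for testing.

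The samples are forelimbs of embryos of strain 129 at embryonic day 13.5. There are 13 from Chsy-1 knockouts and 9 from the wild type. Chsy-1 encodes chondroitin sulfate synthase 1, an enzyme that builds the sugar chains of matrix proteoglycans. Forelimb RNA carried the dye Cy5 and shared each array with a universal mouse reference RNA in Cy3, and values are given as log2 of forelimb over reference. The reference was common to the 22 arrays and no dyes were swapped. The series' design text calls the replicates biological. The labels do not say whether a sample is 1 embryo or a pool, nor which part of the gene was removed. The p-values thus speak of the spread from sample to sample, whatever a sample holds.

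The cell bodies of the neurons that innervate a limb lie outside it, in the dorsal root ganglia, the sympathetic chain and the ventral spinal cord, and only their axons grow into the limb. Schwann cell precursors, which come from the neural crest, travel along these axons and depend on neuregulin signals that the axons present and that Erbb3 receives together with Erbb2. Chondroitin sulfate proteoglycans are known from other settings as matrix cues that restrain growing axons. In whole limbs, fewer cells of a type and less RNA per cell cannot be told apart.

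The targeted gene checked the labels. Chsy1 had log2 ratios from -5.12 to 0.15 in the 13 knockout arrays, against 1.28 to 2.02 in the 9 wild-type arrays, a difference of -6.15 (SE 0.44, adjusted p = 8.5e-09, limma). The array labelled knockout 1 had the value of 0.15, while the other 12 knockout arrays lay between -5.12 and -4.05. It lay below all wild-type arrays and far above the other knockouts, so the differences of the 8 genes were also computed without it. They then ran from -0.11 for Tubb3 to 0.39 for Nefm, and 0 of 8 passed. All 6 slides held both genotypes. Within the slides, genotype and position were largely confounded: the 10 arrays at positions 3 and 4 were knockouts, position 2 had 3 arrays of each genotype, and the 6 at position 1 were wild type. Between 27214 and 30599 of 43379 spots per array were well above background in Cy5. Precision is limited by how many arrays there are. The forelimb gene Tbx5 was above background on 22 arrays, but so were Pitx1 and Tbx4, which are known as hindlimb genes. Pitx1 averaged 5.47 in knockouts and 5.67 in the wild type.

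None of the 8 genes passed the test between genotypes. In limma's fit over all genes with Benjamini-Hochberg adjustment, 0 of 8 had an adjusted p under 0.05, and 6 of 18629 genes did, which is 0.0322%, with 0.00537% higher in knockouts. At an unadjusted p under 0.05 there was 1 of the 8, Nefm, against 5.81% of all genes. It was higher in knockouts, where 1.56% of all genes were higher and 4.25% lower at that threshold. The difference was above 0 for 5 of the 8, against 45.6% of all genes, and its median was 0.03 on the log2 scale, against -0.0081 over all genes. For every one of the 8 the ranges of the genotypes overlapped. The share of all genes with overlapping ranges is not given here, so the overlap does not set the 8 apart. The 0 calls also held in each of 40 other settings, where the smallest adjusted p of any of the 8 genes was 0.23. Without knockout 1, 2 of the 8, Nefm and Erbb3, had an unadjusted p under 0.05 in limma, against 974 of 18629 genes. In the Cy5 channel alone there were 2, Nefm and Sox10, against 995 genes. With median centring there were 3, Nefm, Sox10 and Erbb3, against 1705.

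**Figure D1:**
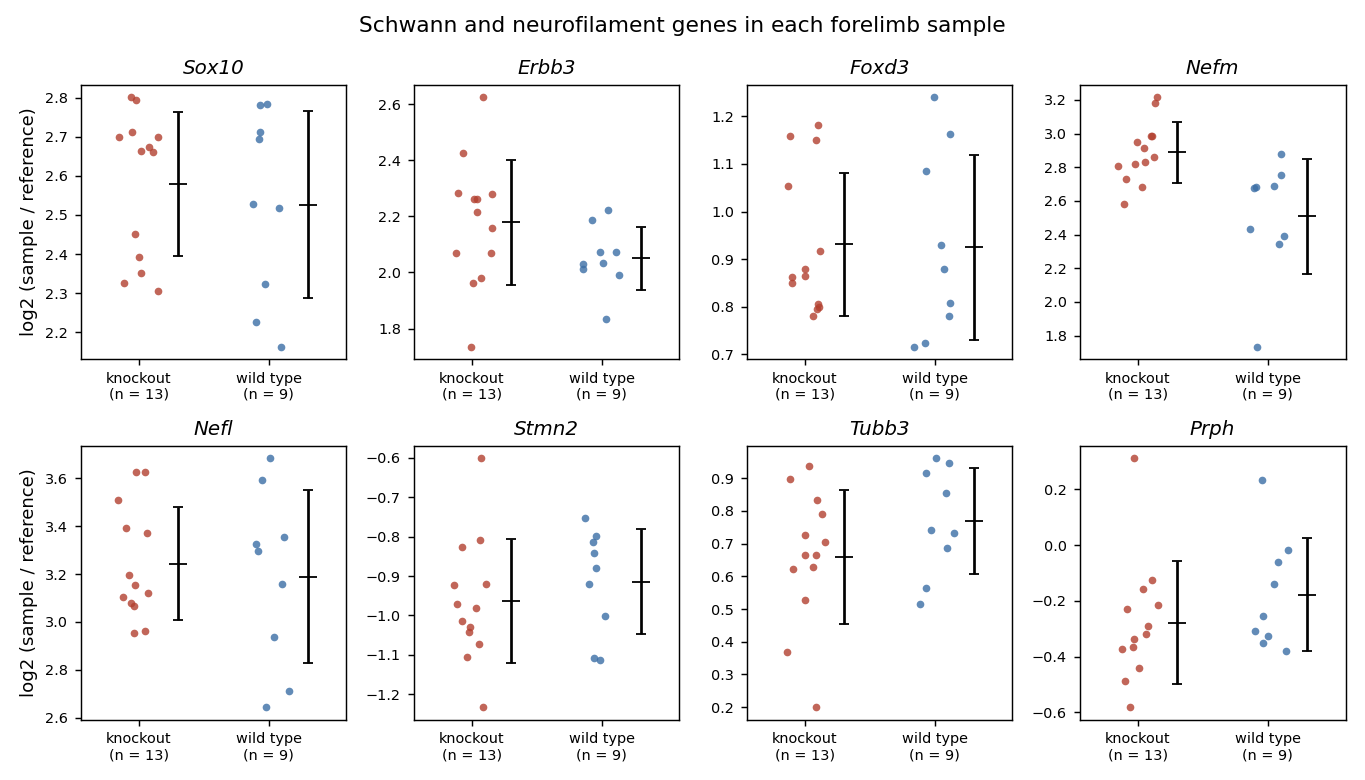
Log2 of forelimb over reference (vertical axis, scaled for each gene) of the 8 genes in each array, with 13 knockout arrays in red on the left and 9 wild-type arrays in blue on the right, and bars for the mean and SD. The genotypes overlap in every panel, and Nefm has 6 of 13 knockout arrays above all wild-type arrays.

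Sox10 encodes a transcription factor needed for Schwann cells at every stage of their development. Its probe lies on chromosome 15 at 78982330 to 78982389, on the minus strand, in the mm8 coordinates of the files, for which no annotation was used here. The log2 ratio ran from 2.31 to 2.80 with a median of 2.66 in knockouts, against 2.16 to 2.78 with a median of 2.53 in the wild type. Only 2 knockout arrays lay above all wild-type arrays and 0 lay below them. The means were 2.58 ± 0.18 (SD, n = 13) in knockouts and 2.53 ± 0.24 (SD, n = 9) in the wild type, and the difference was 0.053 with a 95% interval from -0.13 to 0.23 (limma, adjusted p = 0.97). Without wild-type 1, the lowest wild-type array, the difference was 0.0078. A second Sox10 probe was above background on 6 knockout and 2 wild-type arrays. Its signal was close to background and it differed by 0.055.

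Erbb3 encodes a neuregulin receptor of Schwann cell precursors. Its brightest probe, on chromosome 10 at 127970642 to 127970701, minus strand, read 1.74 to 2.63 with a median of 2.21 in knockouts, against 1.83 to 2.22 with a median of 2.04 in the wild type. Knockout arrays were the more widely spread, with 6 above and 1 below all wild-type arrays. The lowest was the array labelled knockout 1. The means were 2.18 ± 0.22 (SD, n = 13) in knockouts and 2.05 ± 0.11 (SD, n = 9) in the wild type, which gave a difference of 0.13 with an interval from -0.037 to 0.29 (limma, adjusted p = 0.91). Without knockout 1 the difference was 0.17, with an unadjusted p under 0.05 and an adjusted p of 0.94 in limma. The other 4 Erbb3 probes were dim, and the best of them was above background on 10 knockout and 7 wild-type arrays.

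Foxd3 encodes a forkhead transcription factor of the early neural crest and its glial descendants. Its single probe lies on chromosome 4 at 99150354 to 99150413, plus strand. The ratio was 0.78 to 1.18 with a median of 0.87 in knockouts and 0.72 to 1.24 with a median of 0.88 in the wild type. The 13 knockout arrays all fell inside the range of the wild type. The difference was 0.0062 with an interval from -0.14 to 0.16 (limma, adjusted p = 0.998), the smallest of the 8.

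Nefm encodes the medium subunit of neurofilaments, the filaments that fill the axon. Its probe lies on chromosome 14 at 67073466 to 67073525, minus strand. The ratio was 2.58 to 3.22 with a median of 2.86 in knockouts, against 1.73 to 2.88 with a median of 2.68 in the wild type. All but 1 of the knockouts lay above the wild-type median, and 4 wild-type arrays lay below all knockouts. The means were 2.89 ± 0.18 (SD, n = 13) in knockouts and 2.51 ± 0.34 (SD, n = 9) in the wild type. The difference of 0.38 (SE 0.11, interval 0.16 to 0.60) is a 1.30-fold ratio of knockout to wild type. Its unadjusted p of 0.0016 gave an adjusted p of 0.59 in limma, so Nefm did not pass. Across the 40 other settings the difference stayed above 0, from 0.25 to 0.52. Some of these settings could not move it. It was still 0.38 under Aquantile, other filters on dim probes, the mean over probes and eBayes with trend. Position as a block and position 2 alone rest on the same contrast, and both gave 0.25.

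The wild-type 3 array had the lowest Nefm, at 1.73, and the next lowest wild-type array was at 2.34. Without wild-type 3 the difference of Nefm was 0.28, with an unadjusted p of 0.0021 and an adjusted p of 1.0 in limma. That array also had the lowest median Cy5 signal of the 22, at 102.8 units. Whether this low signal bears on Nefm was not tested. Knockouts were higher on 4 of 6 slides, and the differences within a slide ran from -0.046 to 0.86. The Cy3 signal of Nefm was not above background on any array, so its level over the reference is a lower bound.

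The array carried the Nefm probe at 10 spots, which share the RNA, the labelling and the hybridisation, so their spread covers spot noise alone. The usable spots numbered 7 to 10 per array. Their pooled SD within an array was 0.096, against 0.26 between arrays of a genotype. Tubb3 was also spotted 10 times, with a pooled SD of 0.044 within arrays and 0.19 between them. For both genes the spread between samples was thus larger than the spread between repeat spots. The low value of wild-type 3 rested on 10 spots, which ran from 1.59 to 1.98.

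**Figure D2:**
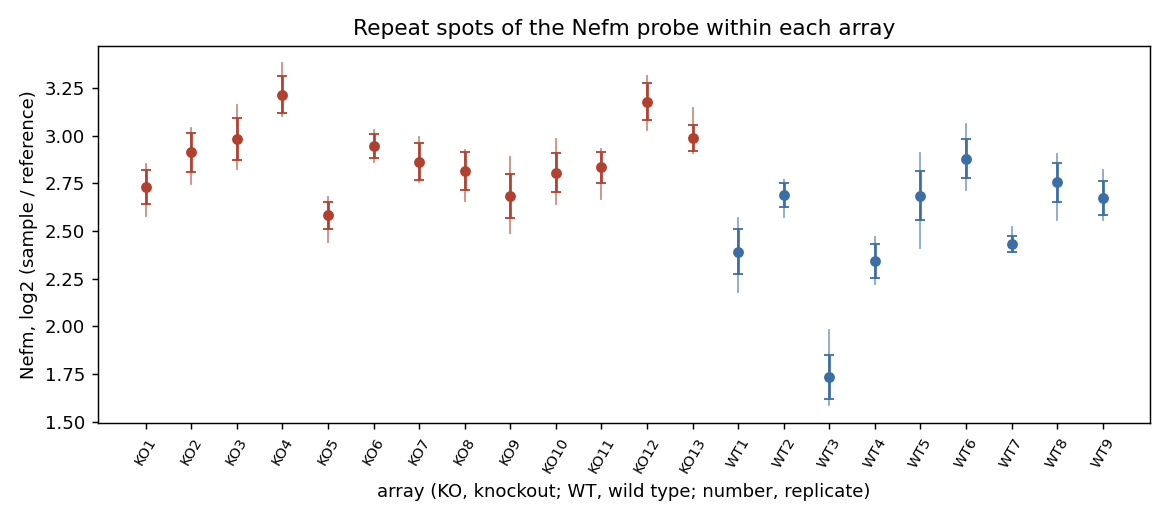
Nefm log2 ratio of sample to reference (vertical axis) in each array (horizontal axis), with knockout arrays in red on the left and wild-type arrays in blue on the right. Points are means over 7 to 10 repeat spots, thick bars their SD and thin bars their full range, and wild-type 3 lies apart at 1.73.

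Nefl encodes the light neurofilament subunit, on which the filament is built, and lies near Nefm on chromosome 14. Its brighter probe, at 67040911 to 67040971, plus strand, read 2.95 to 3.63 with a median of 3.15 in knockouts, against 2.64 to 3.68 with a median of 3.30 in the wild type. No knockout array lay outside the wild-type range. The difference was 0.054 with an interval from -0.19 to 0.30 (limma, adjusted p = 0.98). The second probe was above background on all 22 arrays and averaged 1.85 ± 0.20 (SD, n = 13) in knockouts and 1.71 ± 0.22 (SD, n = 9) in the wild type, a difference of 0.14. The probes followed each other over the 22 arrays with r = 0.64. Whether Nefl and Nefm differ in their response was not tested. The Cy3 signal of Nefl was likewise not above background on any array.

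Stmn2 encodes a stathmin that binds tubulin in growing axons. Its probe on chromosome 3 at 8544334 to 8544393, plus strand, read -1.23 to -0.60 with a median of -0.98 in knockouts, against -1.11 to -0.75 with a median of -0.88 in the wild type. The ranges again overlapped, with 1 knockout array above and 1 below all wild-type arrays. The difference was -0.049 with an interval from -0.18 to 0.085 (limma, adjusted p = 0.97). A second Stmn2 probe was not above background on any array.

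Tubb3 encodes the beta tubulin typical of neurons. Its probe on chromosome 8 at 126307891 to 126307950, plus strand, read 0.20 to 0.94 with a median of 0.67 in knockouts, against 0.52 to 0.96 with a median of 0.74 in the wild type. The 2 lowest knockout arrays, knockout 4 and knockout 9, lay below all wild-type arrays. The difference was -0.11 with an interval from -0.28 to 0.056 (limma, adjusted p = 0.93).

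Prph encodes peripherin, an intermediate filament protein of peripheral neurons. Its probe on chromosome 15 at 98884900 to 98884959, plus strand, read -0.58 to 0.31 with a median of -0.32 in knockouts, against -0.38 to 0.23 with a median of -0.25 in the wild type. Knockout 13 and wild-type 5 were the highest of their groups, and 1 knockout array lay above and 3 below all wild-type arrays. The difference was -0.099 with an interval from -0.28 to 0.085 (limma, adjusted p = 0.95). Without wild-type 5 the difference was -0.048. Knockouts were lower on 6 of 6 slides, with differences within a slide from -0.49 to -0.0043. The median Cy5 signal of Prph was 96.3 units, against a background of 54 to 57, so it was the dimmest of the 8.

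The intervals state what the arrays leave room for. For 7 of the 8 genes they contained 0, and the widest of these 7, that of Nefl, reached from -0.19 to 0.30. A p that misses the threshold does not show that the genes were equal.

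Of 20 Schwann lineage genes 18 were tested, 10 were higher and 8 lower in knockouts, and 0 were called by limma, with 1 higher and 0 lower at an unadjusted p under 0.05. The list had a median difference of 0.0038, against -0.0081 over all genes. Leaving out 1 array at a time gave medians from -0.016 to 0.038, and without wild-type 1 there were 7 genes higher, so the list had no settled direction. Over the 15 listed genes other than Sox10, Erbb3 and Foxd3 the median was -4e-04. Sox2, a factor of immature Schwann cells and of other progenitors, had the highest difference, 0.21 (interval 0.069 to 0.34, adjusted p = 0.75). Pmp22, a myelin protein that many other tissues also make, differed by -0.14 and by -0.030 with a second probe.

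Of 30 axonal and neuronal genes 26 were tested, 14 were higher and 12 lower, and 0 were called by limma, with 1 higher and 2 lower at an unadjusted p under 0.05. Their median difference was 0.023, and it ran from -0.015 to 0.027 when 1 array was left out, so its sign was not settled either. Over the 21 other listed genes it was 0.027. The 1 higher gene was Nefm. The lower ones were Uchl1, an enzyme of the ubiquitin system abundant in neurons, at -0.22 (interval -0.37 to -0.064, adjusted p = 0.79), and Mapt, the microtubule protein tau, at -0.17. Further probes above background on 22 arrays gave -0.15 for Uchl1, and -0.057 and -0.14 for Mapt. Among the other neurofilament genes, Nefh was above background on 6 arrays and Ina on 2, too few to be tested.

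**Figure D3:**
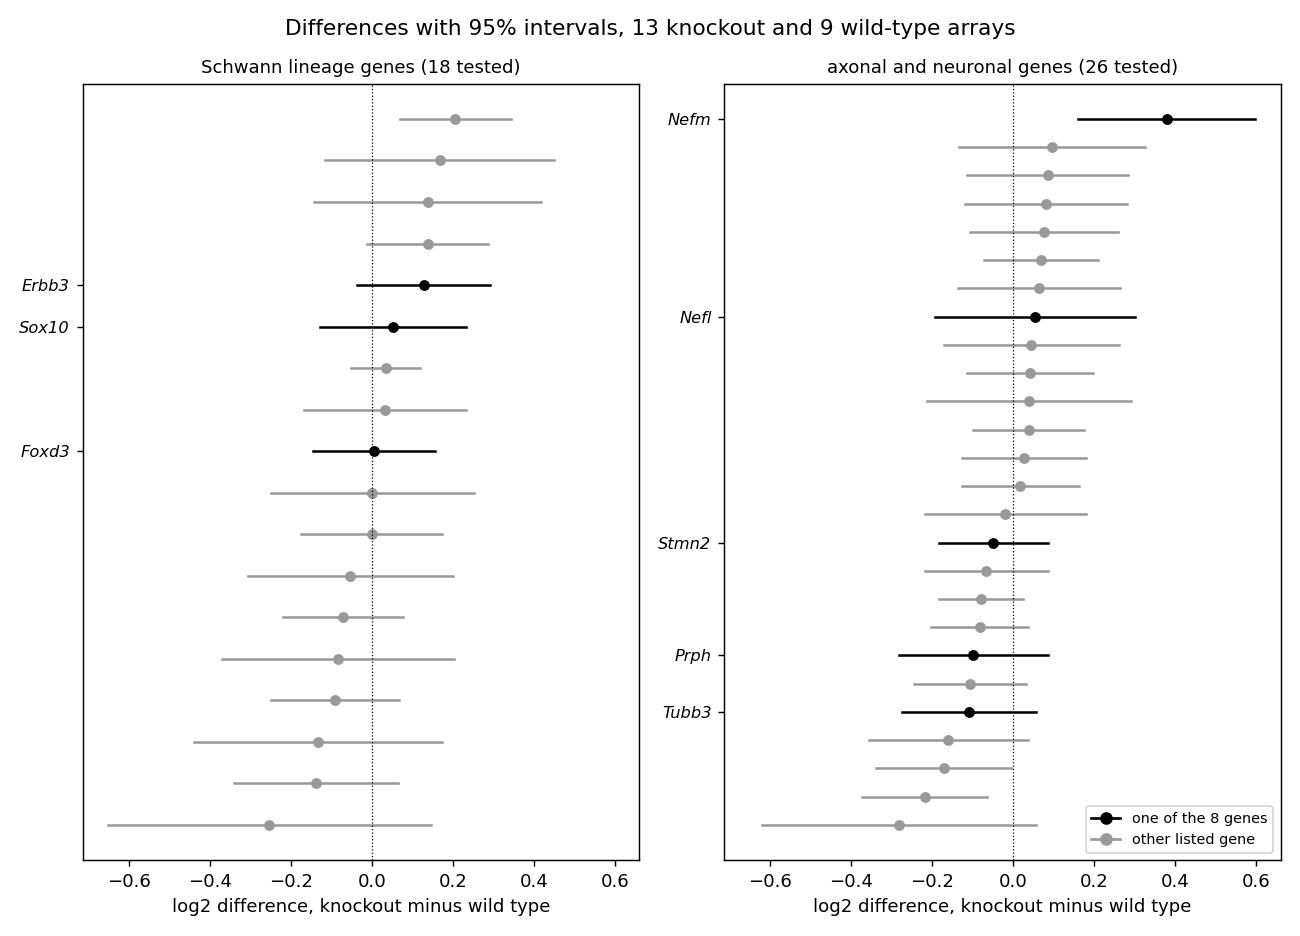
Log2 difference, knockout minus wild type (horizontal axis), with its 95% interval, for the 18 tested Schwann lineage genes and the 26 tested axonal and neuronal genes (rows). The 8 genes are black and named, the other listed genes are grey, and Nefm, at 0.38, has the highest difference of the axonal and neuronal genes.

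Neuron cell bodies were looked for through the transcription factors that define them. Of 17 such factors 7 were tested, and Insm1, Pou4f2 and Tlx3 were among those not above background on any array. Isl2 and Isl1, LIM factors of motor and sensory neurons, differed by 0.48 (adjusted p = 0.78) and 0.34 (adjusted p = 0.85) in limma. As a mean deviation of the 7 genes per array, knockouts ran from -0.10 to 0.46 and the wild type from -0.28 to 0.029. The 0.46 was knockout 12 alone, with knockout 13 next at 0.23. The -0.28 was wild-type 5 alone, with wild-type 6 next at -0.115. The part of these factors in the Nefm difference was not tested. Th and Ret, markers of sympathetic and sensory neurons, were not above background on any array, and of the 11 brain and spinal cord genes Nkx2-2, Olig1, Otx2 and Sox3 were not either.

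The signals between axon, Schwann cell and limb were measured as well. Of 5 tested neuregulin and Erbb genes 2 were higher and 3 lower, with 0 called, and the median difference was -0.098. Erbb2, the partner of Erbb3, differed by -0.098 and its second probe by 0.10, so its probes disagreed in direction. Nrg1, the ligand, differed by -0.12 (interval -0.29 to 0.052). Of 13 trophic and guidance factors of the limb 8 were higher and 5 lower, with 0 called and 0 at an unadjusted p under 0.05 in limma. The differences of the 13 genes ran from -0.14 to 0.10 with a median of 0.026, and every interval contained 0. The 2 genes named by their small p both lie at the lower end. Sema3a, which repels axons, differed by -0.11, but by -1e-04 with a second probe that was above background on 22 arrays. Slit2, a ligand of Robo receptors, differed by -0.14 and by -0.20 with its second bright probe.

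Between arrays, Sox10 and Foxd3 followed the slide. The slide took up 65% of the variance of Sox10 within genotypes and 57.7% of that of Foxd3, against a median of 24.9% over 18610 genes. On slides 5 and 6 the Sox10 ratio was 2.23 to 2.45 in 6 arrays, and on slides 1 to 4 it was 2.16 to 2.80 with a median of 2.70 in 16 arrays, a split chosen after the values were seen. Nefm was at the other end, with 4.73% of its variance between slides. In the Cy5 channel alone, without the reference, the slide took up 22.4% for Sox10 and 53.9% for Foxd3, against a median of 27.9%. With the slide as a block, the difference of Sox10 was 0.097 and that of Foxd3 0.048, and neither passed.

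**Figure D4:**
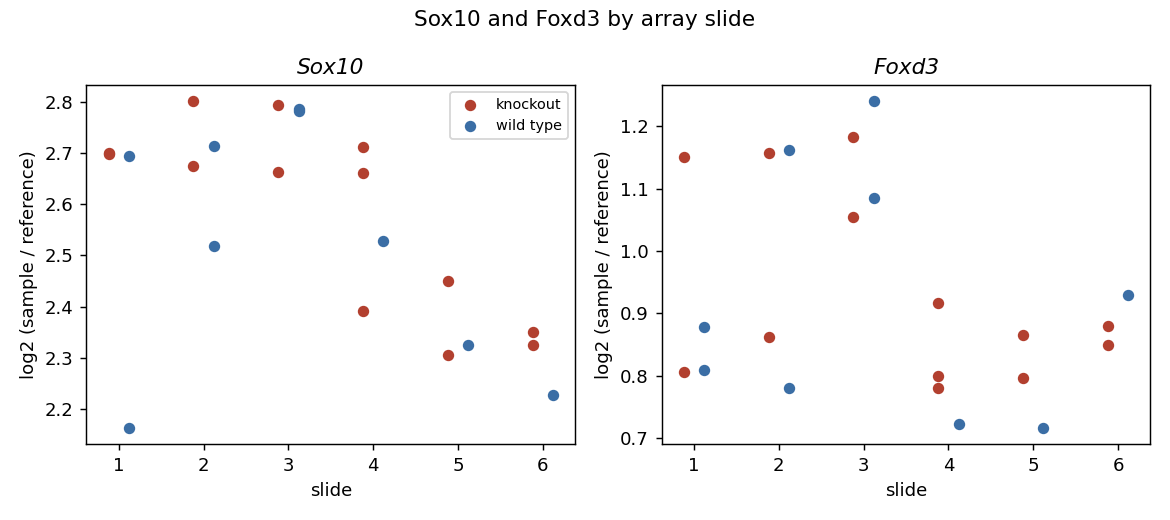
Log2 of forelimb over reference (vertical axis) of Sox10 and Foxd3 in each array by slide (horizontal axis), with knockout arrays in red and wild-type arrays in blue. All 6 arrays of slides 5 and 6 read between 2.23 and 2.45 for Sox10, whichever their genotype.

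The position on the slide could be set against genotype only at position 2, where 3 knockout and 3 wild-type arrays lay on different slides. There Sox10 averaged 2.34 in knockouts and 2.66 in the wild type, a difference of -0.32, the opposite direction to that over all arrays. Its adjusted p with position as a block was 1.0 in limma. The 3 knockout arrays came from slides 4 to 6 and the 3 wild-type arrays from slides 1 to 3, so at this position slide and genotype cannot be told apart. Nefm differed there by 0.25, in the direction seen over all arrays.

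Whether the 8 genes vary together was asked over the 28 pairs and 22 arrays. No pair passed, with 0 adjusted p under 0.05 for Pearson's r and 0 for Spearman's rho (permutation tests, two-sided, adjusted over the 28 pairs). The closest pair was Sox10 and Foxd3, with r = 0.62 (permutation p = 0.0025, adjusted p = 0.069) and rho = 0.63 (permutation p = 0.0018, adjusted p = 0.052). It was r = 0.59 within the 13 knockouts and 0.65 within the 9 wild-type arrays. Without the 2 arrays farthest from the median of Sox10, wild-type 1 and wild-type 6, r was 0.68. After genotype and slide means were removed it was 0.43, and in the Cy5 channel alone, without the shared reference, it was -0.012. Nefm and Nefl, whose proteins form one filament, had r = 0.38 (permutation p = 0.082, adjusted p = 0.34) and rho = 0.41 (permutation p = 0.058, adjusted p = 0.24), and r = 0.44 after genotype and slide means were removed.

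How many pairs passed depended on bright specks in the local background. On 2 of the 22 arrays, wild-type 1 and knockout 12, 15 spots had a background over 100 units above the array's median, up to 15409 units on wild-type 1. These specks were replaced by the array's median background here. With the background as deposited, 10 of the 28 pairs passed. Wild-type 1 then read 1.01 for Sox10, 0.94 for Nefm and 1.11 for Nefl, against 2.16, 2.39 and 2.64 with the specks replaced, and lay outside the range of the other wild-type arrays for 7 of the 8 genes, against 3. Its log2 ratios over all genes had a slope of 0.68 on the mean of the other wild-type arrays, against 1.00 with the specks replaced. Sox10 and Nefl, for example, had r = 0.76 with the background as deposited and 0.053 with the specks replaced. The difference of Nefm was 0.46 as deposited.

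**Figure D5:**
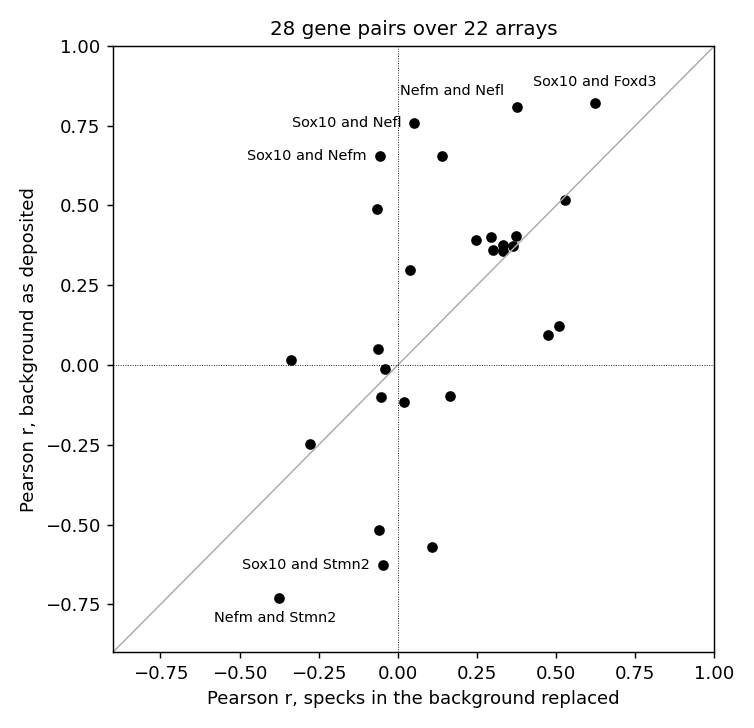
Pearson r of the 28 gene pairs over 22 arrays, with the bright background specks replaced (horizontal axis) and with the background as deposited (vertical axis), where the grey line marks equal values. Sox10 and Nefl have 0.053 on the horizontal and 0.76 on the vertical axis, and Sox10 and Foxd3 have 0.62 and 0.82.

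The genes whose pattern was most like each of the 8 were ranked by r over the 22 arrays after genotype means were removed, among 16165 other named genes, with no test. All values share the array and its reference. Sox10 was most like Efs (r = 0.88), Sorcs1 (0.83) and Tmem59l (0.79). Erbb3 was most like Sfmbt1 (0.91), Ido2 (0.90) and Zhx3 (0.90). Foxd3 was most like Tsga10 (0.86), Hspa12b (0.84) and Pcdh12 (0.84). None of these 9 is among the listed Schwann lineage genes.

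For Nefm the nearest genes were Nemp1 (0.85), Mphosph8 (0.83) and Bhlhb9 (0.82). Nefl was nearest to Masp1 (0.79), Klf14 (0.79) and Abra (0.78). The nearest to Stmn2 were Lcp1 (0.76), Defb15 (0.75) and Egln3 (0.74). Tubb3 was nearest to Trp53inp2 (0.74), Rnf111 (0.67) and Snn (0.66). Prph was nearest to Thbs2 (0.75), Acta1 (0.74) and Ndrg1 (0.73), of which Acta1 encodes the actin of skeletal muscle. The listed nerve genes came lower: of the other 17 tested Schwann lineage genes, Gfra3, the receptor subunit for artemin, was the one most like both Sox10 (r = 0.67) and Foxd3 (r = 0.74), and Ednrb, an endothelin receptor of neural crest cells, the one most like Erbb3 (r = 0.69). The median r of these 17 genes was 0.21 with Sox10, 0.44 with Erbb3 and 0.35 with Foxd3, against 0.042, 0.11 and 0.029 over all named genes. Over the other 25 axonal and neuronal genes the median r was -0.22 with Nefm, 0.069 with Nefl, 0.13 with Stmn2, 0.16 with Tubb3 and 0.072 with Prph. Over all named genes it was 0.0020 with Nefm, 0.067 with Nefl, 0.022 with Stmn2, 0.040 with Tubb3 and 0.026 with Prph. Nefm was thus the one of the 5 with a negative median.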

How the data were processed

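Per the labels' protocols, forelimb RNA in Cy5 and a universal reference RNA in Cy3 shared each array. The submitters' processing notes name Agilent Feature Extraction 9.5. The spot and background values are raw intensities as deposited, per the file headers. The deposited log10 ratio is Cy5 over Cy3 after the scanner software's background subtraction and dye normalisation, and the authors' value table equals it, with a difference of 0 in all 22 arrays. Flags for background and outliers are deposited as 0 or 1.

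Spot means were corrected with normexp (offset 50). Fitted on the deposited backgrounds, normexp put the Cy5 background mean at -30.9 on knockout 12 and -403.5 on wild-type 1, against -14.3 to -7.00 on the other 20 arrays. Local backgrounds over 100 units above the array's median, on 15 spots, were therefore set to that median, a choice made after seeing the data, and the means became -8.55 on knockout 12 and -8.88 on wild-type 1. Ratios were then normalised by loess, without control and outlier spots, and converted to log2. Repeat spots were averaged. Testing required a Cy5 signal well above background on 9 or more arrays, and each gene was read from its brightest probe.

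Knockout minus wild type was fitted with limma 3.58.1 in R 4.3.3 on all arrays without covariates, adjusted by Benjamini-Hochberg over all genes at 0.05. Pair correlations used 100000 permutations, and 20000 in the other settings. Gene names came from a GRCm38.p6 table and coordinates from the files (mm8). The fit was also run on simulated data with independent genes and arrays. These had no slide or position effects, so that run does not bear on such effects. The text names the 8 genes, up to 3 genes of each list by smallest p, Chsy1, limb markers and the 3 genes most like each member; other list genes named were chosen after their values were seen. Some genes that this rule names are not reported here. Members and lists were chosen with earlier results of these data known. Same-numbered arrays deviated with r from -0.29 to 0.45, over 0.1 in 3 of 9 pairs. These values cannot settle whether the numbers pair samples, and the fit took the arrays as unpaired.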

Additional observations from a re-analysis of the deposited data

Results flagged for a closer look

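In the 9 wild-type arrays, 43 genes were searched for an array far from the rest, and 3 had one, where chance gives about 1 in 20. Nefm in wild-type 3 was at 1.73, and the next array was at 2.34. Mitf, a melanoblast gene, was at -1.43 in wild-type 3, with the next array at -1.89. Prrx2, a limb mesenchyme gene, was at 0.995 in wild-type 6, with the next array at 1.43.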

How the results depend on the processing

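The count of 0 among the 8 genes held in all 40 other settings. Nefm kept a positive and Prph a negative difference in all 40, and the other 6 genes changed sign in 1 to 14 of them, always without passing. Some of the 40 settings change only the filter or the test and could not turn a sign. Over all genes, 6 were called, of which 1 was higher in knockouts, Chst8, named after its value was seen. There were 3 calls with offset 10 (0 higher), 2 with median centring (1 higher), 1 with the scanner software's log ratio (0 higher), 1 with position as a block, 1 without wild-type 1 and knockout 12, and 3 to 8 when 1 array was left out. At position 2 alone 0 passed in limma, with 436 at an unadjusted p under 0.05. The replicate block left 1 call, gave Nefm 0.35 (adjusted p = 1.0) and changed the call of no member, and whether the numbers pair samples is not known.

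Leaving out 1 array gave 0 to 1 passing pairs. There were 10 with the background as deposited, 8 with median centring, and 1 each with offset 10, no background correction, the scanner's log ratio, Aquantile, genotype and slide means removed, or each pair's 2 farthest arrays left out. The cause was not tested, except that the specks set the deposited-background fit.

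Signs turned as follows. Offset 10 gave Sox10 -0.012 and Foxd3 -0.011. No background correction gave Foxd3 -0.0091. The scanner's log ratio gave Sox10 -0.0998, Dbh -0.15, Hand2 -0.049, Hoxd13 -0.081 and Tbx4 -0.057. Position as a block, and position 2 alone, both gave Sox10 -0.32, Erbb3 -0.0040, Foxd3 -0.066, Stmn2 0.063, Dct 0.090, Hand2 -0.12, Isl1 -0.032, Mlana 0.088, Nrg1 0.031, Pax6 0.018 and Tbx5 -0.12. Array weights gave Foxd3 -0.033 and Nefl -0.013. Without wild-type 1 and knockout 12, Foxd3 was -0.019 and Nefl -0.0043. Median centring moved the median of all genes to 0.12, so its values stand relative to that: Stmn2 0.061, Tubb3 0.045, Cdh5 0.0076, Des 0.0060, Erbb2 0.085, Erbb4 0.0165, Flt1 0.091, Nes 0.045, Nrg1 0.018, Pmp22 0.046, Sema3a 0.055, Slit2 0.041 and Vim 0.13. The Cy5 channel alone gave Pitx1 0.053, and the mean of all probes gave Erbb2 0.0011. Leaving out 1 array gave Sox10 0.0078 to 0.0855, Erbb3 0.091 to 0.17, Nefm 0.28 to 0.42, Stmn2 -0.080 to -0.027, Tubb3 -0.14 to -0.072 and Prph -0.15 to -0.048, with no change of sign. It gave Foxd3 -0.020 to 0.046, Nefl -0.014 to 0.12 and Vim -0.12 to 0.010. The added settings were wild-type 1 and knockout 12 left out, equal spread between arrays, genotype means removed and the background as deposited. Dim signals limit Prph and the further probes of Sox10 and Erbb3.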

Other observations

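Other tissues of the limb were measured beside the nerve. Over all genes 45.6% were higher in knockouts, and at an unadjusted p under 0.05 there were 1.56% higher and 4.25% lower. All 11 tested skeletal muscle genes were lower in knockouts, with 0 called by limma and 4 at an unadjusted p under 0.05, and a median difference of -0.15. Ttn differed by -0.40 with its brightest probe and by -0.28, -0.18 and -0.088 with 3 others above background on 22 arrays, Acta1 by -0.31 and Myh3 by -0.23. The 6 endothelial genes were lower as well by their brightest probes, with 0 called and 1 at an unadjusted p under 0.05, and Kdr differed by -0.20. Further probes above background on 22 arrays gave 0.093 and -0.073 for Flt1 and -0.013 for Cdh5, so not every probe was lower. Of the 5 tested melanoblast genes 1 was higher and 4 lower, with 0 called and 0 at an unadjusted p under 0.05. Of the 8 forelimb mesenchyme genes 6 were higher, with 0 called and 1 at an unadjusted p under 0.05, and Prrx2 differed by 0.30 (adjusted p = 0.71). Of the 10 tested sensory, motor and sympathetic genes 5 were higher, or 3 without wild-type 1, with 0 called and 0 at an unadjusted p under 0.05. Of the 6 tested intermediate filament genes 2 were higher, or 1 without wild-type 1, with 0 called and 1, Nefm, at an unadjusted p under 0.05. Of the 7 tested central nervous system genes 2 were higher, with 0 called and 2 lower ones at an unadjusted p under 0.05. Pitx1 and Tbx4 differed by -0.20 and 0.067, with 0 called and 1, Pitx1, at an unadjusted p under 0.05.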
